A study of Rattus norvegicus with 64 samples.

Results

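Potassium channel genes were followed through bulk RNA sequencing of the hippocampus and the cortex of rats of 2 APOE genotypes, with and without the anthracycline doxorubicin. The family was taken as every gene whose symbol starts with Kcn, followed by letters and a number, in the authors' comparison tables, without Kcnj10 and Kcnj13, with 1 row kept per symbol. This rule gave 77 of the 15432 genes with a symbol. It reads symbols and no measured difference, but it was chosen with earlier results of these data known. It covers the pore-forming subunits of voltage-gated channels (13 genes of the Kv1 to Kv4 classes, 5 KCNQ genes and 8 genes of the EAG, ERG and ELK group), 9 silent modifier subunits, 7 calcium- or sodium-activated channels, 11 inward rectifiers, 11 two-pore-domain channels and 13 auxiliary subunits. All 77 reached a test in at least 1 comparison, 74 had a mean level of at least 1 CPM (counts scaled to library size, with TMM factors over all 64 libraries), and the means ran from 0.868 to 496.1 CPM. CPM carries no correction for transcript length, so levels are compared between samples and never between genes.

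The samples came from 32 rats labelled ApoE3 or ApoE4, after the human apolipoprotein E forms that carry a lower and a higher risk of Alzheimer disease. Of the 16 rats of each genotype, 8 were given PBS, the buffer control, and 8 doxorubicin at 2 mg/kg per week for 4 weeks from an age of 5 weeks, and each set of 8 held 4 males and 4 females. Hippocampus and cortex were taken from the same animals 5 to 6 weeks after the last dose, which made 8 groups of 8 libraries. Strain, the way the human form was introduced and a group without either form are not given in the sources used here, and the numbering of the rats follows their genotype, sex and treatment block by block, so that a batch along the numbering cannot be told apart from these factors.

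Potassium channels let potassium leave the cell and so set the resting potential, end action potentials and limit repetitive firing. Kv1, Kv3 and Kv4 subunits carry fast voltage-gated currents, Kv2 a slower one, and KCNQ subunits the M-current that restrains firing. Silent modifiers form no channel of their own and join Kv2 subunits. Inward rectifiers and two-pore-domain channels act near rest, and cytoplasmic or membrane partners such as Kv beta, KChIP and KCNE subunits alter gating or transport. In hippocampus and cortex these genes are known for sharply different use by neuron type, and a few, such as Kcnj16 in astrocytes and Kcne2 in choroid plexus, belong to other cells.

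Library totals ran from 10836181 to 20397553 counts. The region labels held against marker genes: the summed level of 7 cortical layer genes had group medians of 559 to 568 CPM in cortex and 140 to 155 CPM in hippocampus. The sum of 8 striatal projection neuron genes had group medians of 319 to 360 CPM in cortex and 165 to 175 CPM in hippocampus. It varied between cortex libraries, up to 707 CPM in ApoE4 doxorubicin rats. Its part in the regional differences was not tested. The libraries of 2 hippocampus samples, ApoE3 PBS rat 45 and ApoE4 doxorubicin rat 31, held 1640 and 1389 CPM of Tph1, a pineal enzyme gene, against at most 29.3 CPM in the other hippocampus libraries, and several hippocampus libraries held choroid plexus transcripts. The members that follow these libraries are described at the end.

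Of the comparisons made, those between the regions called the most members, and most of these were lower in hippocampus than in cortex. In ApoE3 PBS rats 59 of 77 members passed edgeR's quasi-likelihood test at a Benjamini-Hochberg adjusted p under 0.05, against 51% of all genes tested. The other rat groups gave 60 of 77 in ApoE3 doxorubicin rats (49.6% of all genes), 56 of 77 in ApoE4 PBS rats (50.4%) and 59 of 77 in ApoE4 doxorubicin rats (50.1%). In all 4 rat groups and in 1 direction, 52 members passed, 36 lower and 16 higher in hippocampus, while 32.5% of all genes did so, 16.1% lower and 16.3% higher. The mean log2 difference was beyond 1 in either direction for 19 members, against 7.75% of all genes. In bulk tissue fewer cells of a type and less RNA per cell cannot be told apart.

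**Figure D1:**
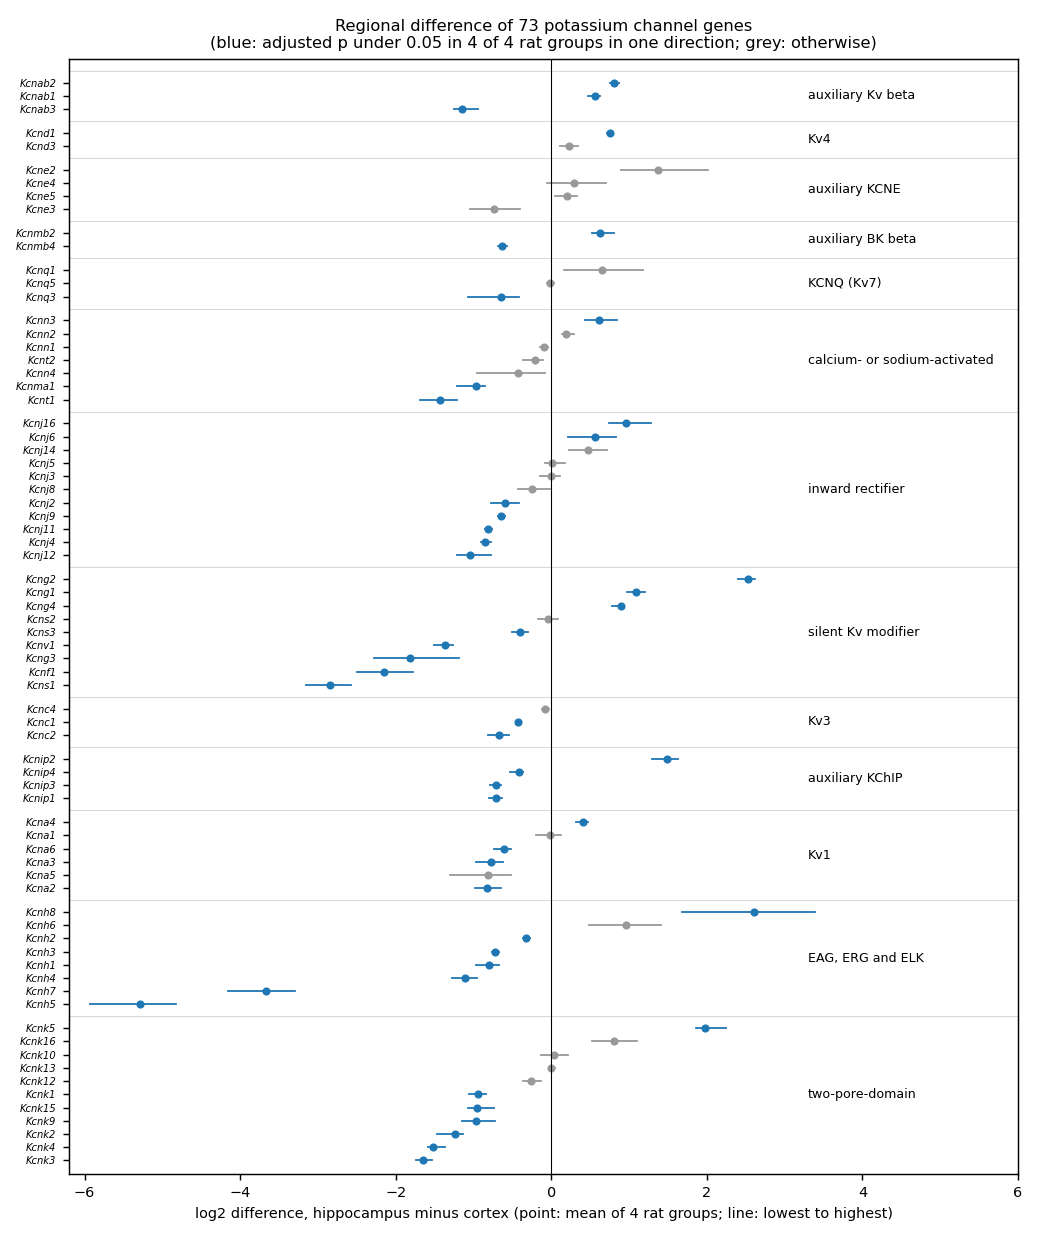
Log2 difference between hippocampus and cortex (x axis, hippocampus minus cortex) for 73 of the 77 members, grouped by subfamily (y axis, gene symbols). Points are means over the 4 rat groups, lines run from the lowest to the highest group estimate, and blue marks members that passed in all 4 groups in 1 direction; Kcnh5 lies between -5.93 and -4.83 and Kcng2 between 2.41 and 2.62.

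The EAG, ERG and ELK group held both ends of the family, with 6 of its 8 genes lower and 1 higher in hippocampus in all 4 rat groups. Kcnh5, an EAG channel gene, ran from 0.187 to 1.54 CPM (median 0.811) in ApoE3 PBS hippocampus and from 12.9 to 32.6 CPM (median 23.0) in ApoE3 PBS cortex. Over all libraries its 32 hippocampus values (0.0748 to 1.96 CPM) stayed below its 32 cortex values (12.9 to 35.5 CPM). The log2 difference was -4.83 (SE 0.28) in ApoE3 PBS rats and -5.93 (SE 0.26) in ApoE4 doxorubicin rats, and the mean over the 4 rat groups, -5.29, corresponds to a 39.1-fold lower level in hippocampus. This fold rests on low hippocampus levels, with a median of 0.568 CPM over all hippocampus libraries, so its size is less sure than its direction. Kcnh7, a neuronal ERG channel gene, came next after Kcnh5.

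Kcnh7 had medians of 3.55 and 3.48 CPM in ApoE3 hippocampus with PBS and doxorubicin and 2.58 and 2.43 CPM in ApoE4 hippocampus. In cortex the medians were 35.9, 37.3, 37.6 and 47.5 CPM in the same order. No hippocampus library exceeded 7.25 CPM and no cortex library fell under 26.3 CPM, so the regions did not overlap in any rat group. The log2 differences were -3.37 (SE 0.21), -3.29 (SE 0.21), -3.87 (SE 0.16) and -4.16 (SE 0.15). The ELK gene Kcnh8 had the opposite pattern, with 0.7 to 4.1 CPM in hippocampus and 0 to 0.616 CPM in cortex, and a mean log2 difference of 2.60 that ran from 1.67 to 3.39 over the rat groups. Kcnh4, another ELK gene, was lower in hippocampus by a mean log2 of -1.11, and Kcnh2, the ERG gene best known from the heart, had one of the smallest differences that passed, -0.33.

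Silent modifiers, which tune Kv2 channels, were also split: 5 of 9 were lower and 3 of 9 higher in hippocampus in all 4 rat groups. Kcns1 stayed between 1.24 and 5.83 CPM over the hippocampus libraries, while the cortex libraries held 14.6 to 45.2 CPM, with a mean log2 difference of -2.84. For Kcnf1 the hippocampus libraries held 10.8 to 38.6 CPM and the cortex libraries 76.8 to 123 CPM, with a mean of -2.14 (group estimates -1.78, -2.27, -2.50 and -2.03). Neither gene overlapped between the regions. Kcng3 (mean -1.81) and Kcnv1 (mean -1.37) were lower in hippocampus as well, and Kcns3 by -0.40. In the other direction, Kcng2 read 35.4 to 54.0 CPM in hippocampus against 4.91 to 10.4 CPM in cortex, again without overlap, and its log2 difference was 2.53 (SE 0.074) in ApoE3 PBS rats. Kcng1 (1.09) and Kcng4 (0.90) followed it.

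Promoters are shown for 4 members whose regional levels and doxorubicin estimates by genotype or sex are described here, each as the 250 bases upstream of the annotated start in the RefSeq table for GRCr8, 5′ to 3′ on the gene's own strand. Capitals mark the GC box GGGCGG on either strand (CCGCCC). The windows lie at chr3:68230672-68230921 (Kcnh7), chr6:99643857-99644106 (Kcnh5), chr1:254613899-254614148 (Kcnip2) and chr6:45693707-45693956 (Kcnf1), all on the minus strand.
Kcnh7: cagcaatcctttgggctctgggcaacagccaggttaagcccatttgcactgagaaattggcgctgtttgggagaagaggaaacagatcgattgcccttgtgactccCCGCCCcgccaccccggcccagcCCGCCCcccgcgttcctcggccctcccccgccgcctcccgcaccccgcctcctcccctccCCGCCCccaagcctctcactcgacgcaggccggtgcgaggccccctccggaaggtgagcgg
Kcnh5: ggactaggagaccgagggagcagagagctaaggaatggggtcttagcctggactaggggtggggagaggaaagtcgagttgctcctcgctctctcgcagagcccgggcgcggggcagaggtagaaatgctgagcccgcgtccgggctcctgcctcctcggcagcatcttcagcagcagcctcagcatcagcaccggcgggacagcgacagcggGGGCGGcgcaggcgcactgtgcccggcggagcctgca
Kcnip2: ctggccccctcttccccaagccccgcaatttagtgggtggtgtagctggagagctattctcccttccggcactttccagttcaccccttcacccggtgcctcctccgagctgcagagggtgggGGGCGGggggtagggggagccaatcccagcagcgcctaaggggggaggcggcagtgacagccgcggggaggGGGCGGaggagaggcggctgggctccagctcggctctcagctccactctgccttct
Kcnf1: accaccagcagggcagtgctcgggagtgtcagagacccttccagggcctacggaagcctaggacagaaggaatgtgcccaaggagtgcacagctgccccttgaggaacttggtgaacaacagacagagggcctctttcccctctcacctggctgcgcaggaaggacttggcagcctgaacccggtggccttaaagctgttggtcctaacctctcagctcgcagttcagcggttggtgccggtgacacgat
GC boxes numbered 3 in Kcnh7, 2 in Kcnip2, 1 in Kcnh5 and 0 in Kcnf1, and the GC content of the windows was 69.2%, 68%, 67.6% and 59.6%. Of the 77 members 51 matched the table, and 28 of these (54.9%) held a GC box, against 30.5% of all 33469 promoters of the same length. The median GC content was 64.8% for the members and 51.2% for all promoters. An E-box (CANNTG, the same on both strands) stood in 29 of the 51 (56.9%) and in 65.5% of all, a cyclic AMP response element (TGACGTCA) in 0 of the 51 and in 1.59% of all, and a TATA box (TATAAA or TTTATA) in 0 of the 51 and in 12.9% of all. These matches describe letters in the windows only.

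Among the fast voltage-gated channels and their partners, 3 of 6 Kv1 genes were lower and 1 was higher in hippocampus in all 4 rat groups. Kcna2, an axonal subunit, read 202 to 283 CPM in hippocampus against 285 to 507 CPM in cortex. Kcna4 was higher in hippocampus by a mean log2 of 0.40. Of the Kv4 genes, which carry dendritic A-type current, Kcnd1 was higher in hippocampus by 0.75. The rule found only 2 Kv4 genes, Kcnd1 and Kcnd3, and 1 Kv2 gene. Kcnd2 is not among the members, and family genes without a symbol in the authors' tables are not covered, so these classes are incomplete here. The KChIP genes, whose products bind Kv4 channels, divided: Kcnip2 was higher in hippocampus (9.5 to 19.1 CPM against 2.96 to 8.02 CPM in cortex, mean log2 1.49), while Kcnip1, Kcnip3 and Kcnip4 were lower, Kcnip4 by -0.42. The Kv beta genes divided too, with Kcnab2 higher (0.81) and Kcnab3 lower (-1.15) in hippocampus.

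Kcnq3, an M-current gene, was lower in hippocampus in all 4 rat groups, with log2 differences of -1.08 to -0.42. The sodium-activated channel gene Kcnt1 was lower in hippocampus by a mean log2 of -1.43 without overlap (39.6 to 82.9 CPM against 136 to 206 CPM), and the small-conductance calcium-activated channel gene Kcnn3 was higher by 0.61. For BK channels, the auxiliary gene Kcnmb2 was higher in hippocampus by 0.63.

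Two-pore-domain channels, which give leak current, were lower in hippocampus in 6 of 11 genes and higher in 1. The mechanosensitive channel genes Kcnk4 (mean log2 -1.51) and Kcnk2 (-1.24) and the acid-sensitive Kcnk3 (-1.64) had no overlap between regions. Kcnk5, an alkaline-sensitive channel gene, was the exception, with 2.43 to 5.28 CPM in hippocampus and 0.237 to 1.51 CPM in cortex and a mean of 1.98. Inward rectifiers were lower in 5 of 11 and higher in 2. Kcnj16, the astrocytic subunit, was higher in hippocampus by 0.96. Of the members, 10 passed in none of the 4 rat groups, among them Kcnn1, Kcnc4, Kcns2, Kcnq5, Kcnj3, Kcnk13, Kcnj5, Kcnk10 and Kcne5.

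Genes outside the family that encode channel partners were tested beside it. Of 20 such genes, 2 were higher and 9 lower in hippocampus in ApoE3 PBS rats, and 2 higher and 12 lower in ApoE4 PBS rats. The shares of all genes that passed in these rat groups are those given above beside the members. These counts are not read as a trait of the partners, and only some of the called genes are named here. Dpp6 and Dpp10, both auxiliary to Kv4 channels, went apart: Dpp6 was higher in hippocampus (log2 0.58 and 0.60 in ApoE3 and ApoE4 PBS rats) and Dpp10 lower (-1.82 and -2.15). Of the genes around Kv1 channels at synapses, Lgi1 was higher (0.81 and 0.72) and Adam22 (-0.90 and -1.04) and Dlg1 (-0.88 and -1.11) lower.

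Over both sexes, no member passed with edgeR for doxorubicin in any of the 4 region and genotype comparisons, which does not show that none changed. By edgeR, 0 of 77 members in ApoE3 hippocampus, 0 of 74 in ApoE4 hippocampus, 0 of 75 in ApoE3 cortex and 0 of 75 in ApoE4 cortex passed, and 0% of all genes did in each. At an unadjusted p under 0.05 there were 12 of 77 members in ApoE3 hippocampus (10.3% of all genes), 3 of 74 in ApoE4 hippocampus (7.38%), 7 of 75 in ApoE3 cortex (9.25%) and 17 of 75 in ApoE4 cortex (8.82%), where 15 of the 17 had positive and 2 negative estimates. The doxorubicin and PBS libraries overlapped for all members in all 4 comparisons, but overlap was not counted over all genes, so this is not a trait of the family. DESeq2 called 1 member in ApoE4 hippocampus, Kcnf1 (0.00732% of all genes with an adjusted p), and 0 in ApoE3 hippocampus (0.97%), ApoE3 cortex (0.547%) and ApoE4 cortex (0.642%).

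Kcnf1 had estimates of opposite sign in the hippocampus of the 2 genotypes. In ApoE3 hippocampus it ran from 22.2 to 37.3 CPM (median 28.6) with PBS and from 16.0 to 38.6 CPM (median 17.2) with doxorubicin, and 6 of the 8 doxorubicin libraries lay between 16.0 and 19.7 CPM, under all PBS libraries. The other 2 were rats 72 (29.4 CPM) and 66 (38.6 CPM). In ApoE4 hippocampus the PBS libraries ran from 10.8 to 27.1 CPM (median 16.8) and the doxorubicin libraries from 24.2 to 31.9 CPM (median 26.9), and PBS rat 4 was the single PBS library inside the doxorubicin range.

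The log2 change of Kcnf1 with doxorubicin was -0.47 (SE 0.18, adjusted p 0.337) in ApoE3 hippocampus and 0.64 (SE 0.14, adjusted p 0.641) in ApoE4 hippocampus, with edgeR, so neither passed. DESeq2 gave 0.65 and an adjusted p of 0.0417 in ApoE4 hippocampus, and in the authors' deposited table Kcnf1 stood at 0.65 with an adjusted p of 0.0442. The difference between the genotypes, 1.10 (SE 0.24), had an adjusted p of 0.194 with edgeR and 0.0241 with DESeq2. In cortex the estimates were 0.02 in ApoE3 and 0.18 in ApoE4 rats, and the 32 libraries lay between 76.8 and 123 CPM.

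**Figure D2:**
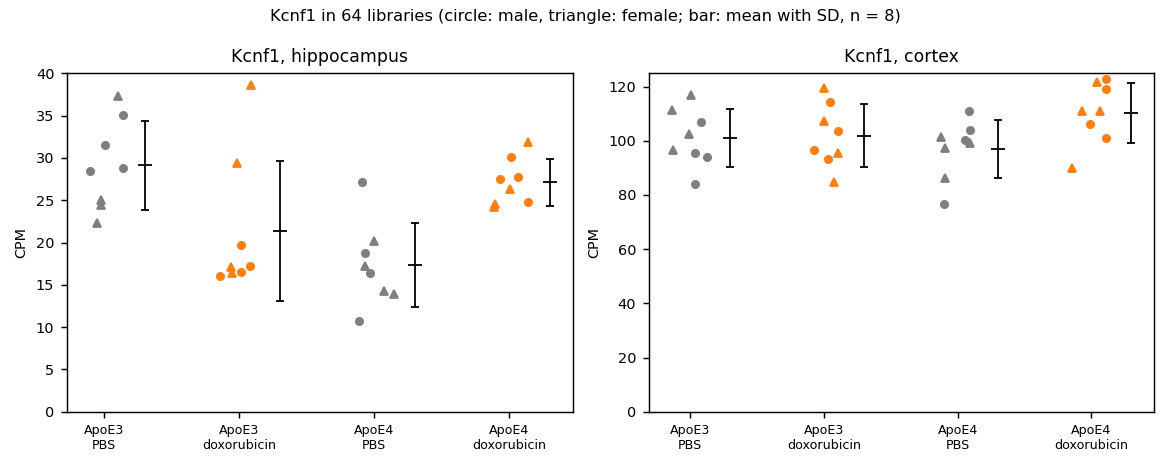
Kcnf1 level (y axis, CPM) in single libraries of the 4 rat groups (x axis) in hippocampus (left) and cortex (right), with circles for males, triangles for females and bars for the mean and SD of 8 libraries. In ApoE4 hippocampus the doxorubicin libraries lie between 24.2 and 31.9 CPM, and 7 of 8 PBS libraries lie below them.

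Beside these values, the summed level of 7 cortical layer genes in hippocampus libraries was 141 to 180 CPM with PBS and 126 to 197 CPM with doxorubicin in ApoE3 rats, and 131 to 153 CPM and 137 to 186 CPM in ApoE4 rats. Doxorubicin rat 66, highest in Kcnf1 in its group, was also highest in that sum, at 197 CPM against 126 to 151 CPM in the other 7. Of the 7 genes 0 were called with doxorubicin in ApoE4 hippocampus, with 7 of 7 estimates above 0 and a median log2 of 0.15. Within the 4 hippocampus groups of 8 libraries, Kcnf1 correlated with that sum on the log2 scale with Pearson's r of 0.74 and 0.69 in ApoE3 PBS and doxorubicin rats and 0.59 and 0.72 in ApoE4 rats (two-sided exact permutation p 0.0358, 0.0949, 0.116 and 0.0355). None passed after Benjamini-Hochberg adjustment over the 16 relations of 4 members computed (exact permutation, adjusted p 0.286, 0.304, 0.309 and 0.286). Spearman's rho was 0.69, 0.10, 0.45 and 0.57 (exact permutation p 0.0694, 0.840, 0.267 and 0.151; adjusted p 0.605, 0.997, 0.611 and 0.605). Without the 2 libraries farthest from the median of the sum, r was 0.46, -0.02, 0.39 and 0.14. Leaving out the extremes of the sum narrows its range, which can lower r by itself, so nothing is concluded from this drop. The part of the cortical layer genes in the doxorubicin estimates of Kcnf1 was not tested. Over the 16 ApoE4 hippocampus libraries the genes whose log2 CPM followed Kcnf1 most closely were Gabra3 (Pearson's r 0.88), Adgra1 (0.86), Parm1 (0.85), Hs6st2 (0.84) and Map3k9 (0.82). These are pooled over PBS and doxorubicin libraries, whose Kcnf1 levels differ. After each group's mean was taken off, r was 0.80 for Gabra3, 0.83 for Adgra1, 0.79 for Parm1, 0.68 for Hs6st2 and 0.66 for Map3k9. Over the ApoE3 hippocampus libraries r was 0.87, 0.85, 0.90, 0.33 and 0.59 in the same order. These coefficients are a description without a test, since the libraries share group and depth.

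Kcnh7 had doxorubicin estimates near 0 in 3 of the 4 comparisons over both sexes: 0.06 in ApoE3 hippocampus, -0.01 in ApoE4 hippocampus and -0.04 in ApoE3 cortex, with adjusted p-values of 0.961 or more. In ApoE4 cortex its range was 29.3 to 46.7 CPM with PBS (median 37.6) and 35.3 to 58.4 CPM with doxorubicin (median 47.5), and the log2 change was 0.30 (SE 0.09) with an adjusted p of 0.367.

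The members with the smallest p-values elsewhere did not pass either. In ApoE3 hippocampus they included Kcnk15 (-0.39, adjusted p 0.194), Kcnj12 (-0.33, 0.212) and Kcna1 (0.17, 0.232). In ApoE4 hippocampus Kcne2 (-1.41, SE 0.76) and Kcnq1 (-0.79) carry the 2 choroid-rich PBS libraries described at the end. The Kcne2 estimate was -0.20 without PBS rat 7 and -0.77 without PBS rat 26, and that of Kcnq1 0.01 and -0.50. ApoE3 cortex gave Kcnt1 (0.19, adjusted p 0.221), Kcnk15 (-0.30, 0.243) and Kcnmb4 (-0.14, 0.491). ApoE4 cortex gave Kcnj6, a G-protein-gated rectifier (0.20, SE 0.05, adjusted p 0.292), Kcnma1, the BK channel pore (0.18, 0.362), Kcng4 (-0.22, 0.384) and Kcnj14 (-0.21, 0.538). The KCNQ genes had estimates above 0 in 5 of 5 members in ApoE3 hippocampus, ApoE3 cortex and ApoE4 cortex (medians 0.16, 0.18 and 0.13). In ApoE4 hippocampus 3 of 5 were above 0, and 0 of them passed in any. Of all genes, 50.7%, 49.9%, 49.8% and 47.0% had estimates above 0 in the same order. This subfamily was not picked by the naming rule, its direction was not tested, and its genes are not replicates. The median over all members was between 0.01 and 0.05 in the 4 comparisons. Of the 20 partner genes 0 passed in any.

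ApoE4 and ApoE3 rats differed in a modest number of members, close to the share among all genes. In the hippocampus of PBS rats 4 of 77 members passed, 1 higher and 3 lower in ApoE4 (3.81% of all genes, 1.93% higher and 1.89% lower), and in doxorubicin rats 2 of 77, 1 higher and 1 lower (3.63% of all genes, 1.87% higher and 1.76% lower). In cortex 14 of 76 passed in PBS rats, 9 higher and 5 lower (18.2% of all genes, 9.63% higher and 8.57% lower), and 11 of 76 in doxorubicin rats, 9 higher and 2 lower (12% of all genes, 6.26% higher and 5.73% lower).

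In hippocampus, Kcnc4, a Kv3 gene, was the member called in both treatments. It ran from 69.9 to 85.4 CPM (median 79.3) in ApoE3 and from 75.9 to 111 CPM (median 95.9) in ApoE4 PBS rats, and from 72.2 to 84.2 CPM (median 79.1) and from 80.3 to 109 CPM (median 94.9) in doxorubicin rats. The ranges touched in both treatments, and the log2 differences were 0.25 (SE 0.06, adjusted p 0.0139) and 0.27 (SE 0.06, adjusted p 0.00764). In PBS rats Kcnf1 was lower in ApoE4 by -0.75 (SE 0.17, adjusted p 0.00645), from the PBS values given above, Kcnab3 by -0.40 (adjusted p 0.0324) and Kcnt1 by -0.34 (adjusted p 0.0388). In doxorubicin rats these stood at 0.35 (adjusted p 0.312), -0.03 and 0.13, and Kcnh8 was lower in ApoE4 by -0.89 (adjusted p 0.0320), at 0.908 to 2.28 CPM against 1.74 to 4.10 CPM. The cortical layer genes beside Kcnf1 had 0 of 7 calls in PBS hippocampus, with 7 of 7 estimates below 0 in ApoE4 (median -0.19); their part was not tested.

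In cortex, 7 members passed in both treatments in the same direction, and among them Kcna2, Kcna3, Kcnd3, Kcnj6 and Kcnq3 were higher and Kcnj16 lower in ApoE4. They make 50% of the PBS list and 63.6% of the doxorubicin list, and over all genes the shared calls make 41.2% and 62.5%. The rats of the 2 treatments are different animals.

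Kcna3, a Kv1 gene also known from microglia and lymphocytes, ran from 11.4 to 14.8 CPM in ApoE3 and from 15.7 to 19.6 CPM in ApoE4 doxorubicin cortex, with no overlap and a log2 difference of 0.40 (adjusted p 0.000220); in PBS cortex the difference was 0.23. Kcnd3, a Kv4 gene of A-type current, separated the doxorubicin groups as well, at 59.3 to 73.5 CPM against 74.0 to 90.3 CPM (0.28, adjusted p 0.000382), and stood at 0.20 in PBS cortex. Kcnj6 differed by 0.32 and 0.39, Kcnq3 by 0.25 and 0.32 and Kcna2 by 0.22 and 0.19. Kcnj16 ran from 9.26 to 13.3 CPM in ApoE3 and from 5.07 to 10.6 CPM in ApoE4 PBS cortex, and from 7.17 to 15.8 CPM and from 4.19 to 9.75 CPM with doxorubicin, with log2 differences of -0.61 (SE 0.15, adjusted p 0.00377) and -0.73 (SE 0.15, adjusted p 0.00103).

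**Figure D3:**
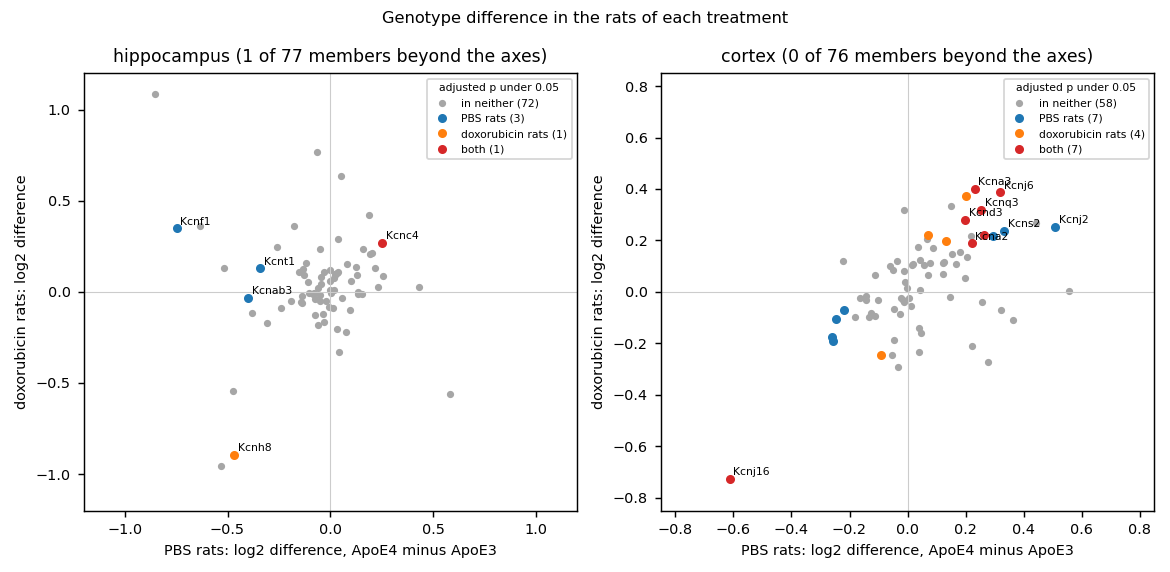
Log2 difference between ApoE4 and ApoE3 (ApoE4 minus ApoE3) in PBS rats (x axis) and in doxorubicin rats (y axis) for the members tested in hippocampus (left) and cortex (right), with colours for the treatment in which a member passed. In cortex the 7 members that passed in both treatments lie in the same direction on both axes, with Kcnj16 at -0.61 and -0.73.

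The other named calls in cortex were made in 1 treatment, and the genotype by doxorubicin test, which sets the treatments against each other, called 0 of 76 members there. In PBS rats, Kcnj2 (0.51), Kcnk9 (0.29) and Kcns2 (0.33) were higher and Kcnip4 (-0.22), Kcnip1 (-0.26), Kcnk15 (-0.25) and Kcnh4 (-0.26) lower in ApoE4 cortex, and in doxorubicin rats Kcnn3 (0.37), Kcnj4 (0.22) and Kcnc4 (0.20) were higher and Kcnt1 (-0.24) lower. In PBS cortex the calls of Kcna3 and Kcnh4 were lost without a sex term (adjusted p 0.0544 and 0.0592 by edgeR), and that of Kcnk15 without the filter on low counts (0.0548). Markers of other cells moved with genotype in the cortex of PBS rats: 4 of 6 meningeal fibroblast genes (median log2 0.96), 4 of 5 endothelial genes (0.39), 3 of 7 pericyte genes (0.46) and 3 of 8 astrocyte genes (0.16) were higher in ApoE4, and 4 of 7 microglial genes lower and 1 higher (-0.32). Of 10 pan-neuronal genes 5 were lower and 1 higher (-0.10). Their part in the channel results was not tested. Of the 20 partner genes, Cntn2 (0.19), Dlg1 (0.10) and Dlg2 (0.30) were higher and Abcc8 (-0.20) lower in ApoE4 PBS cortex, and 0 passed in hippocampus in either treatment. Beside these marker and partner counts, 2788 of all 15315 genes tested passed between the genotypes in PBS cortex, in either direction.

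No member passed a test of whether the doxorubicin effect differed by genotype (0 of 77 in hippocampus and 0 of 76 in cortex, and 0% of all genes in each). At an unadjusted p under 0.05 there were 10 of 77 in hippocampus (8.18% of all genes) and 2 of 76 in cortex (5.45%), and DESeq2 called Kcnf1 in hippocampus. The doxorubicin effect did not differ between the regions for any member at the threshold either (0% of all genes in both genotypes). Kcnt1 came nearest in ApoE3 rats, with hippocampus at 60.1 to 82.9 CPM with PBS and 50.4 to 82.2 CPM with doxorubicin and cortex at 141 to 183 CPM and 173 to 206 CPM. The difference of its 2 effects was -0.47 (SE 0.11), with an adjusted p of 0.0672 by edgeR, 0.0130 by DESeq2 and 0.133 with each rat as a block. The regional difference of Kcnf1 in PBS rats was larger in ApoE4 than in ApoE3 by -0.68, with an adjusted p of 0.0952 (0.13% of all genes passed) and of 0.0233 by DESeq2. For the DESeq2 calls in this paragraph the share of all genes called is not given, so whether they stand out was not assessed.

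Males and females were then compared for the doxorubicin effect, a test added after the data had been seen. In ApoE3 cortex 17 of 75 members passed for a female minus male difference (22.7%, against 2.57% of all genes), 15 with a lower and 2 with a higher effect in females. All 15 had a male estimate above 0 and a female estimate below 0, and the 2 others, Kcnj16 and Kcnmb4, the reverse. The same test gave 0 of 77 members in ApoE3 hippocampus (0% of all genes), 0 of 74 in ApoE4 hippocampus (0%) and 0 of 75 in ApoE4 cortex (0.00674%), with 7, 4 and 3 members at an unadjusted p under 0.05, by edgeR. DESeq2 called 20 members in ApoE3 cortex, where it called 6.1% of all genes with an adjusted p, and 0 members in ApoE3 hippocampus (0% of all genes), ApoE4 hippocampus (0.00418%) and ApoE4 cortex (0.18%).

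Kcnh7 showed the pattern without overlap between treatments in males. Its male cortex libraries read 26.3, 31.8, 32.2 and 38.3 CPM with PBS and 41.8, 44.5, 47.2 and 49.8 CPM with doxorubicin, and its female libraries 33.5, 47.5, 48.7 and 49.3 CPM with PBS and 27.2, 28.2, 29.3 and 32.9 CPM with doxorubicin. So every doxorubicin male stood above the PBS males and every doxorubicin female below the PBS females. The log2 change was 0.51 (SE 0.11, adjusted p 0.0274) in males and -0.60 (SE 0.11, adjusted p 0.0139) in females, and their difference -1.10 (SE 0.16, adjusted p 0.000835).

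Kcnh5 read 12.9, 18.0, 18.6 and 23.6 CPM in PBS males, 25.8, 32.0, 32.4 and 35.5 CPM in doxorubicin males, 22.5, 30.4, 32.0 and 32.6 CPM in PBS females and 18.5, 21.6, 21.9 and 22.0 CPM in doxorubicin females. Both sexes were again separated by treatment, in opposite directions. The changes were 0.79 in males (adjusted p 0.00919) and -0.47 in females (adjusted p 0.0792), with a difference of -1.26 (SE 0.19, adjusted p 0.00157). Kcnip2, the KChIP gene, read 3.32 to 4.82 CPM and 4.68 to 8.02 CPM in PBS and doxorubicin males and 5.54 to 6.05 CPM and 2.96 to 3.64 CPM in PBS and doxorubicin females, so that females separated and males overlapped. Its difference was -1.37 (SE 0.26, adjusted p 0.00671), with -0.75 in females (adjusted p 0.0426).

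**Figure D4:**
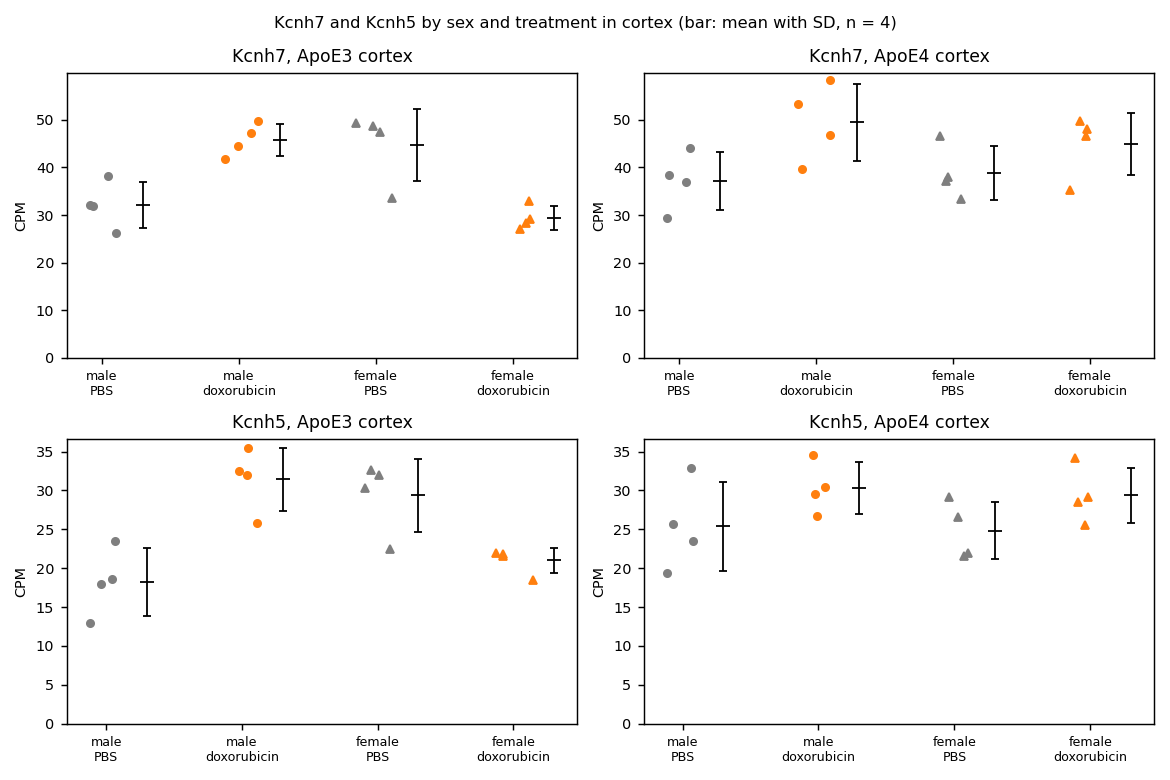
Kcnh7 (top) and Kcnh5 (bottom) level (y axis, CPM) in single cortex libraries of ApoE3 (left) and ApoE4 rats (right) by sex and treatment (x axis), with bars for the mean and SD of 4 libraries. In ApoE3 cortex, doxorubicin males lie above PBS males (41.8 to 49.8 CPM against 26.3 to 38.3 CPM for Kcnh7) and doxorubicin females below PBS females.

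The other members with a lower effect in females came from most roles in the family. They were the silent modifiers Kcns1 (-1.22), Kcns2 (-0.75) and Kcnv1 (-0.52), the Kv1 and Kv3 genes Kcna1 (-0.64), Kcna2 (-0.39) and Kcnc2 (-0.47), the EAG gene Kcnh1 (-0.64), the M-current gene Kcnq3 (-0.58), the BK pore Kcnma1 (-0.42), the G-protein-gated rectifier Kcnj6 (-0.66), the two-pore channel Kcnk2 (-0.55) and the Kv beta gene Kcnab3 (-0.58). The 2 genes with a higher effect in females were the astrocytic rectifier Kcnj16 (0.74), at 7.17 to 10.5 CPM in doxorubicin males and 10.8 to 15.8 CPM in doxorubicin females, and the BK auxiliary gene Kcnmb4 (0.35). Within males 9 of 75 members passed, 8 of them higher with doxorubicin (0.799% of all genes passed, 0.731% higher), and within females 2 of 75, Kcnh7 and Kcnip2 (1.33%). Over all 75 members 52 had a difference below 0, with a median of -0.17.

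**Figure D5:**
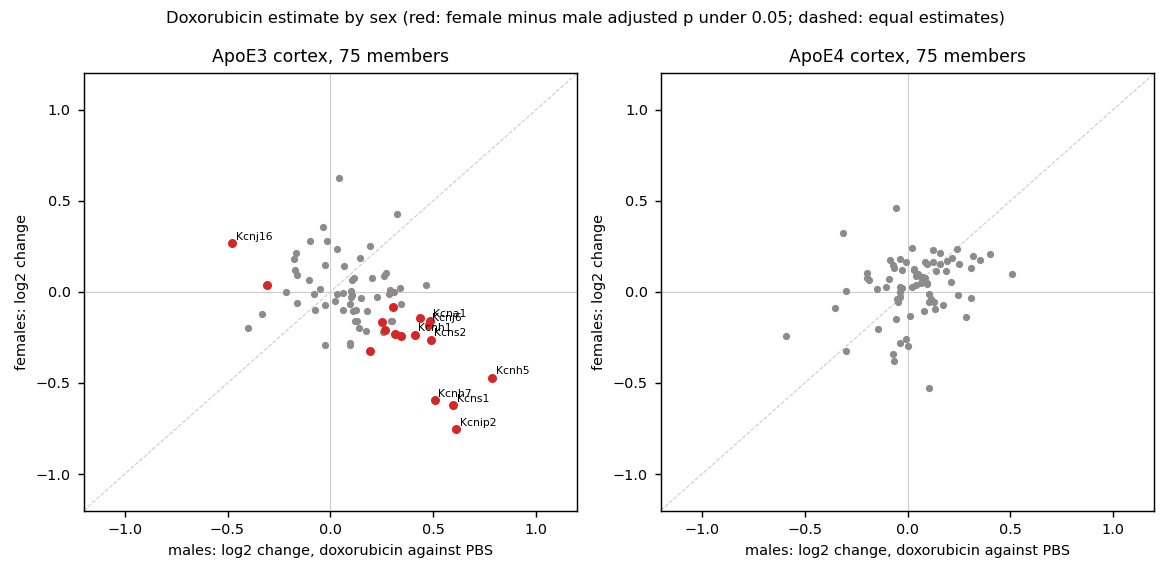
Doxorubicin log2 change in males (x axis) and in females (y axis) for the 75 members tested in ApoE3 cortex (left) and in ApoE4 cortex (right), with members that passed for the female minus male difference in red and a dashed line where both estimates are equal. In ApoE3 cortex the 15 members with a lower effect in females lie right of 0 and below 0, and Kcnj16 and Kcnmb4 lie in the opposite quadrant.

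These calls rest on 4 rats per sex and treatment. Leaving out 1 library moved the count of 17 to between 8 and 20, and it fell by over 1.5 times without doxorubicin rats 47 (9), 49 (9), 65 (8) and 72 (11) and without PBS rat 58 (9). The share of all genes called in these fits is not given, so the fall is not read as a result about the members. Kcnh5, Kcnh7, Kcnip2, Kcnj6, Kcnk2, Kcnq3 and Kcns1 passed in all 16 such fits, with highest adjusted p-values of 0.00597 for Kcnh5 and 0.0039 for Kcnh7, and Kcnv1, Kcnj16 and Kcnmb4 in 4 of 16.

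Markers of other neurons moved with the same comparison. Of 8 striatal projection neuron genes 6 passed with a lower effect in females (median -1.04), and their summed level ran from 277 to 437 CPM in PBS males, 369 to 660 CPM in doxorubicin males, 342 to 430 CPM in PBS females and 262 to 326 CPM in doxorubicin females. Interneuron genes passed in 4 of 7 (median -0.43, sums of 594 to 668, 700 to 803, 670 to 751 and 555 to 681 CPM in the same order), pan-neuronal genes in 2 of 10 and cortical layer genes in 0 of 7. Pericyte genes had a higher effect in females in 2 of 7, with sums of 191 to 217, 158 to 246, 188 to 234 and 250 to 331 CPM. None of the 7 excitatory neuron, 5 dentate and hippocampal, 3 thalamic, 8 astrocyte, 8 oligodendrocyte, 7 microglial, 5 endothelial, 6 meningeal and 3 choroid plexus genes tested passed by edgeR. Their part in the channel results was not tested, and a batch along the blocks of rat numbers cannot be told apart from sex and treatment. In ApoE4 cortex the striatal sum of males ran from 308 to 491 CPM with PBS and from 360 to 707 CPM with doxorubicin. Females there held 292 to 340 CPM and 263 to 278 CPM. The mean sums with PBS and doxorubicin were 377 and 486 CPM in ApoE4 males and 320 and 272 CPM in ApoE4 females. In ApoE3 cortex they were 332 and 543 CPM in males and 387 and 285 CPM in females. Whether these shifts differ between the genotypes was not tested.

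Whether the sex difference itself differed between genotypes or regions was tested as well. Between ApoE4 and ApoE3 cortex 0 of 76 members passed (0.0914% of all genes) and 27 had an unadjusted p under 0.05 (14.1% of all genes). Between hippocampus and cortex of ApoE3 rats 0 of 77 passed (0.0519%) and 25 had an unadjusted p under 0.05 (12.8%). In the genotype test Kcnh5 stood at 1.25 with an adjusted p of 0.0607 and Kcnh7 at 0.91 with 0.122. In ApoE4 cortex Kcnh7 had estimates of 0.40 in males and 0.21 in females, with a difference of -0.19 (adjusted p 0.927), so the sex difference of ApoE3 cortex is not shown to be absent there.

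A few members were set by single hippocampus libraries. Kcnh6, an ERG gene, read 31.4 CPM in ApoE3 PBS rat 45 and 49.3 CPM in ApoE4 doxorubicin rat 31, against 3.77 to 4.32 CPM and 3.15 to 6.25 CPM in the other 7 libraries of each group. The rectifier gene Kcnj14 read 48.9 and 47.1 CPM in the same libraries, against 14.4 to 20.4 CPM and 16.5 to 19.8 CPM. These were the libraries with 1640 and 1389 CPM of the pineal gene Tph1. Kcne2, the auxiliary gene abundant in choroid plexus, read 123.1 CPM in ApoE4 PBS rat 7 and 62.8 CPM in rat 26, where the choroid transport gene Ttr read 10635 and 5112 CPM, and 63.6 and 49.0 CPM in ApoE3 doxorubicin rats 51 and 65, with Ttr at 5528 and 4511 CPM. Its median over all hippocampus libraries was 5.39 CPM. Kcnq1, the partner of Kcne2 in epithelia, read 11.0 CPM in ApoE4 PBS rat 7.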

How the data were processed

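RNA was sequenced from the hippocampus and cortex of 32 rats (64 libraries). Per the labels' protocols, total RNA from frozen samples was extracted with Qiagen RNeasy Plus Universal kits and libraries were made with NEBNext Ultra II. Reads were aligned with STAR 2.5.2b and compared with DESeq2, per the submitters' processing notes; the build, counter and strand setting are not given in the sources used here, so reads of overlapping or antisense genes cannot be told apart. The authors deposited whole-number counts per gene, and tables of their own log2 fold changes, p-values and adjusted p-values, per the file headers. A further 64 columns of per-library values that match no sample were not used.

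From the counts, edgeR 4.0.16 (R 4.3.3) was fitted with TMM scaling, its filter on low counts, a term for sex and Benjamini-Hochberg adjustment over all genes tested, with a threshold of 0.05; the 92 spike-in rows were left out. The SE is the log2 change divided by the root of F. DESeq2 1.42.0, RLE scaling, no filter, no sex term, a replicate block and leaving out libraries were alternatives. The scripts were tested on simulated data. Samples were grouped by the region, genotype and treatment in the labels, and hippocampus and cortex of 1 rat share its number. Deviations from the group means correlated within these 32 pairs with a median r of 0.22 (-0.10 to 0.40).

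The members, lists and rules were chosen with earlier results of these data known. Kcnf1 and Kcnh7 were named always, in doxorubicin, genotype and interaction comparisons the members that passed and, per direction, those of smallest p (2 each), and between regions the 12 with the largest difference in each direction and the 5 with the smallest among those that passed in all 4 rat groups. Kcnh6 was added, and the test by sex was chosen, after the values had been seen. Lists of other cell types served as checks: pan-neuronal, excitatory, interneuron, cortical layer, dentate, striatal, thalamic, astrocyte, oligodendrocyte, microglial, endothelial, pericyte, meningeal and choroid plexus genes. P-values measure the spread between libraries, which is the spread between rats within a region. The main fits between regions treat the 2 libraries of a rat as independent, and the replicate block is the alternative that uses the pairing. A few members enter the counts but are not reported here by name.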

Additional observations from a re-analysis of the deposited data

Results flagged for a closer look

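In the 8 libraries of a group, a member was singled out where the highest or lowest value stood far from the rest by Dixon's criterion, which chance meets in about 1 of 20 groups. Of 424 combinations of 53 named members and groups, 30 met it. Hippocampus of ApoE3 doxorubicin rat 66 was the highest library for Kcnab3 (20.0 CPM), Kcnj12 (10.5 CPM), Kcnk3 (11.4 CPM), Kcns3 (17.5 CPM) and Kcnt1 (82.2 CPM), all members lower in hippocampus than in cortex. It also had the highest sum of cortical layer genes in its group, 197 CPM against 126 to 151 CPM; the part of that sum in these values was not tested.

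Hippocampus of ApoE3 PBS rat 45 and ApoE4 doxorubicin rat 31 was highest for Kcnh6 (31.4 and 49.3 CPM) and Kcnj14 (48.9 and 47.1 CPM), beside Tph1. Kcnq1 was highest in ApoE3 PBS rat 37 (3.83 CPM) and ApoE4 PBS rat 7 (11.0 CPM), where the choroid gene Ttr read 2916 and 10635 CPM. Kcne2 was highest in cortex of ApoE3 PBS rat 58 (10.1 CPM), ApoE3 doxorubicin rat 72 (11.5 CPM) and ApoE4 PBS rat 19 (12.8 CPM). In these cortex libraries Ttr read 754, 552 and 582 CPM, the highest of their groups.

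Other hippocampus values that stood apart at the upper end were Kcnh2 in ApoE4 PBS rat 4 (38.0 CPM) and ApoE4 doxorubicin rat 11 (38.7 CPM), Kcnip1 in ApoE4 PBS rat 26 (20.2 CPM), Kcnk1 in ApoE3 PBS rat 37 (50.5 CPM) and Kcnk2 in ApoE4 doxorubicin rat 10 (35.0 CPM), and at the lower end Kcnmb4 in ApoE4 PBS rat 7 (31.6 CPM). In cortex the upper ones were Kcnab3 in ApoE4 doxorubicin rat 11 (38.1 CPM), Kcnh6 in rat 29 (6.07 CPM), Kcnj2 in rat 13 (9.91 CPM) and Kcnn2 in rat 10 (26.6 CPM) of the same group, Kcnk1 in ApoE3 doxorubicin rat 47 (106.6 CPM) and Kcnk4 in ApoE3 PBS rat 43 (84.2 CPM). The lower ones were Kcna2 in ApoE4 PBS rat 24 (379.9 CPM), Kcng3 in ApoE3 PBS rat 61 (1.73 CPM), and Kcnip1 in rat 11 (12.2 CPM) and Kcnq3 in rat 31 (60.9 CPM) of the ApoE4 doxorubicin group.

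The doxorubicin effect in ApoE3 cortex differed between females and males by a test of the difference (female minus male, log2, adjusted p under 0.05 with edgeR, 4 rats per sex and treatment) for 17 members. The differences were Kcnh7 -1.10, Kcnh5 -1.26, Kcnip2 -1.37, Kcns1 -1.22, Kcnj6 -0.66, Kcnq3 -0.58, Kcnma1 -0.42, Kcnk2 -0.55, Kcna1 -0.64, Kcnh1 -0.64, Kcnab3 -0.58, Kcns2 -0.75, Kcna2 -0.39, Kcnc2 -0.47, Kcnv1 -0.52, Kcnmb4 0.35 and Kcnj16 0.74.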

How the results depend on the processing

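Over the named members, 218 results stayed on their side of the threshold with DESeq2 and 5 passed in addition, 221 with RLE scaling, where 1 passed in addition, 204 without the filter on low counts and 203 without a sex term. Without a sex term Kcna3 and Kcnh4 lost their genotype calls in PBS cortex, and without the filter Kcnk15 did. Kcnj2 passed between genotypes in doxorubicin hippocampus with DESeq2 and RLE scaling, and Kcnv1 lost its call by sex with RLE scaling. DESeq2 called 1 member where edgeR called 0 for doxorubicin in ApoE4 hippocampus, genotype by doxorubicin in hippocampus and region by genotype (Kcnf1 in each), and for region by doxorubicin in ApoE3 (Kcnt1), which the fit without the filter also called (1 member). The cause was not tested. Beyond ApoE4 hippocampus, the shares of all genes called in these fits are not given, so whether the members stand out was not assessed. Leaving out 1 library moved the count of 17 members in the ApoE3 cortex sex comparison to between 8 and 20, again without the share of all genes in these fits.

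The small doxorubicin estimates of Kcnh7 changed sign as single libraries were left out: from -0.086 to 0.17 in ApoE3 hippocampus, from -0.11 to 0.10 in ApoE4 hippocampus (0.00531 without a sex term) and from -0.12 to 0.029 in ApoE3 cortex. Kcnf1 ran from -0.017 to 0.058 in ApoE3 cortex and Kcnq1 from -0.92 to 0.014 in ApoE4 hippocampus, where rat 7 decided its sign; Kcne2 ran from -1.78 to -0.20 there. Hippocampus and cortex of 1 rat are paired: with the replicate block, 59, 59, 55 and 60 of 77 members passed between regions in ApoE3 PBS, ApoE3 doxorubicin, ApoE4 PBS and ApoE4 doxorubicin rats (51.1%, 49.7%, 50.2% and 50.7% of all genes), and all 132 named results kept their side of the threshold. With 8 rats a group, members of a few CPM give wide errors, and differences there may not be detectable.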
